A study of Mus musculus with 15 samples.

Results

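Cathepsins are proteases of the lysosome, named by letter, that digest proteins taken up or turned over by the cell and that can be secreted into the space around it. The family has 3 chemistries, with cysteine proteases (cathepsins B, C, H, K, L, S and Z), aspartic proteases (D and E) and a serine carboxypeptidase (A), and most are made as inactive precursors that are cut in the acid of the lysosome. In bone, cathepsin K is the collagen-degrading protease that osteoclasts, the multinucleated cells that resorb bone, secrete onto the matrix. Macrophages use cathepsin S to cut the invariant chain during antigen presentation and cathepsins B and D for bulk degradation. The genes described here are *Ctsa*, *Ctsb*, *Ctsc*, *Ctsd*, *Ctse*, *Ctsh*, *Ctsk*, *Ctsl*, *Ctss* and *Ctsz*, 10 of the 20089 complete gene entries analysed. They were listed by name, with earlier results of these data known.

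They were measured by RNA-seq in bone marrow-derived macrophages (BMDMs), cells grown from marrow with macrophage colony-stimulating factor (M-CSF), which can be turned into osteoclasts by RANKL, the ligand of the receptor RANK, or into inflammatory macrophages by the bacterial product lipopolysaccharide (LPS). The cells came from wild-type C57BL/6 mice, and the 15 samples formed 5 groups of 3, namely control cells in M-CSF without stimulus and cells in M-CSF with 100 ng/mL of RANKL or of LPS for 4 h or for 72 h. Every group had therefore received M-CSF, for 3 days by the description of the series, whereas the study's culture methods describe 4 days at 50 ng/mL. Those methods give an age of 4 to 8 weeks for mice from which BMDMs were made, and none is given for these samples in particular. A group left for those 72 h without a stimulus was not analysed here, so time in culture and stimulus cannot be told apart in the comparisons of 72 h with control. The labels do not say whether the 3 replicates of a group came from separate cultures or animals, and the p-values measure the spread between these samples only. Levels are FPKM, fragments normalised to the exon length of the gene and to the reads mapped in the sample. Comparisons between genes depend on that length, for which the values imply 1440 bases in *Ctsz* and 11143 in *Ctsc*. The order of the genes and their shares below are those of FPKM.

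The libraries were of similar depth, with 19562663 to 21480177 mapped reads implied by the FPKM values. All 8 macrophage markers were detected in every group (summed level 6046 to 17490 FPKM), 8 of 9 osteoclast markers were above control in RANKL 72 h, with *Calcr* listed at 0 in control and RANKL 4 h, and 8 of 8 LPS response genes were above control in LPS 4 h (in LPS 72 h 6 were higher and 1 lower). Other cell types also left RNA. The 8 markers of neutrophils and their precursors summed to 7809 to 24220 FPKM in control, 1848 to 7448 in RANKL 72 h and 149 to 1806 in LPS 72 h, and none was listed at 0 throughout a group. The 10 stromal markers summed to 152 to 338 FPKM in control and 414 to 1935 in RANKL 72 h, where 8 of them were higher. The sums of B cell, basophil and mast cell, and dendritic cell markers stayed between 0.134 and 65.0 FPKM in all groups, and these markers were lower at 72 h (with RANKL and LPS respectively, 3 and 4 of 4, 4 and 4 of 4, and 2 and 3 of the 3 tested, with *Siglech* listed at 0 in LPS 72 h). In bulk RNA, fewer cells of a type and less RNA per cell cannot be told apart. LPS 72 h replicate 3 stood apart from the other libraries of its group, with a median chi-square between gene counts of 45.6 and 31.1 times sampling noise against the other replicates, compared with at most 19.6 in the other pairs of replicates. Its markers differed too, with 17490 FPKM of macrophage markers (6086 and 7876 in replicates 1 and 2), 470 of stromal markers (88.9 and 80.9), 1806 of neutrophil-lineage markers (186 and 149) and 2018 of LPS response genes (4396 and 4109), and results for LPS 72 h are given with and without it where they changed.

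In control cells the levels of the family spanned from *Ctsd*, at 6184 ± 347 FPKM (SD, n = 3), to *Ctse*, at 2.52 ± 2.04 FPKM. Between them stood *Ctss* (4291 ± 965 FPKM), *Ctsb* (3015 ± 204), *Ctsz* (1349 ± 180), *Ctsl* (809 ± 137), *Ctsa* (282 ± 18.6), *Ctsh* (273 ± 62.4), *Ctsc* (83.0 ± 21.1) and *Ctsk* (24.0 ± 8.73). Of the neighbours in this order, only *Ctsa* and *Ctsh* overlapped over the 3 control samples. The transcript for the bone collagenase was thus next to last in unstimulated cells, with 717 to 1537 fragments per sample, and *Ctse* rested on 60 to 207 fragments. Together the 10 genes made 3.64% to 3.73% of the summed FPKM of the listed genes in control.

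The order was similar in RANKL 4 h, in which *Ctsa* and *Ctsh* again overlapped. In RANKL 72 h *Ctsk* had moved from the 9th to the 4th place at 1060 ± 568 FPKM (SD, n = 3), in a range that overlapped that of *Ctsz* (670 ± 36.9 FPKM), and the other 9 genes were in the order of control. In LPS 4 h *Ctss* (3663 ± 681 FPKM) and *Ctsd* (3655 ± 512 FPKM) overlapped at the top, as did *Ctsa* (217 ± 14.7), *Ctsh* (216 ± 41.0) and *Ctsc* (192 ± 27.0) further down. In LPS 72 h *Ctsz* (1603 ± 121 FPKM) overlapped *Ctsl* (1303 ± 482 FPKM), and *Ctsk* (88.3 ± 62.1) overlapped *Ctsc* (86.7 ± 53.3).

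**Figure D1:**
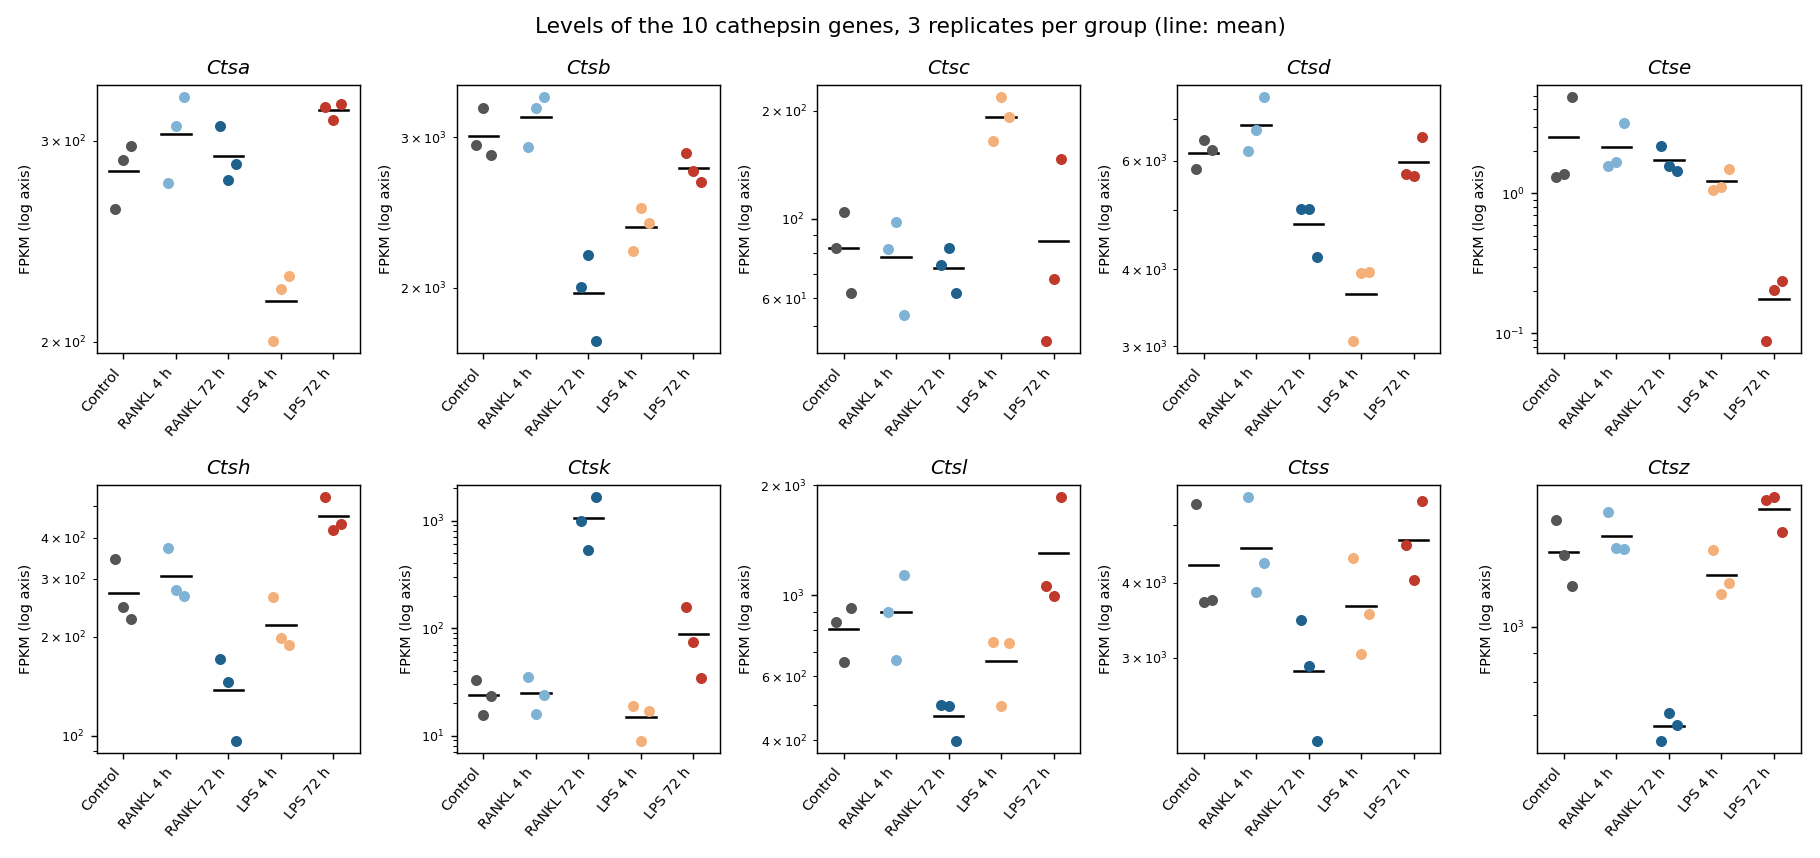
Level of each cathepsin gene in FPKM (vertical log axes, a range of its own for each gene) in the 15 samples of the 5 groups. Points are replicates 1 to 3 from left to right and lines are means of 3. *Ctsk* in RANKL 72 h (532 to 1661 FPKM) lies above every other sample, and *Ctse* in LPS 72 h (0.0886 to 0.236 FPKM) below every other sample.

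The first question was what RANKL and LPS did within hours and by 72 h, relative to control. Genes with an unadjusted p under 0.05 were called higher when the fold passed 1.5 and lower when it was under 0.66 (limma on log2(FPKM + 0.1), with the study's thresholds), and Benjamini-Hochberg adjusted p-values over the 11743 genes tested are printed beside. All 10 cathepsins were tested. Counts of cathepsins whose groups did not overlap are given here and below without a share over all genes, which was not computed. They describe these genes only and are not a result about the family. After 4 h of RANKL no cathepsin was called higher (1.21% of all genes tested were) and none lower (1.35% of all genes). At an unadjusted p under 0.05 alone there was also none in this fit, and limma voom on the recovered fragments called none. The 10 log2 fold changes lay between -0.10 for *Ctsc* and 0.17 for *Ctsh*, with a median of 0.10 against 0.00 for all genes, and no gene's groups were apart. The 95% intervals were narrowest for *Ctsa* (-0.12 to 0.33) and widest for *Ctsk* (-1.08 to 1.18). Samples with the same replicate number deviated together here, and between them the differences were small. *Ctsk* was at 32.9, 15.5 and 23.5 FPKM in control replicates 1 to 3 and 35.0, 15.9 and 23.7 FPKM in RANKL 4 h. It was higher in each of the 3 pairs, as were *Ctsa*, *Ctsd*, *Ctsh*, *Ctsl*, *Ctss* and *Ctsz* (7 genes), whereas *Ctsc* was lower in each and *Ctsb* and *Ctse* were higher in 2. The share of all genes that were higher in every pair was not computed, so this count is a description only. With the replicate number as a block in a fit of these 2 groups alone, chosen after the data were seen, the 95% interval of *Ctsk* was -0.09 to 0.18 and that of *Ctsh* 0.04 to 0.30. No cathepsin passed the fold in that fit either, and the adjusted p-values were 0.136 or more.

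By 72 h of RANKL, 1 of the 10 genes was higher (20.2% of all genes tested were) and 4 were lower (9.04% of all genes). The gene that rose was *Ctsk*, and those that fell were *Ctsb*, *Ctsh*, *Ctsl* and *Ctsz*. All 5 are cysteine proteases, as are most of the 10 genes. The median log2 fold change of the 10 genes was -0.49, beside 0.16 for all genes, and in 7 of 10 the samples of the groups did not overlap. All 5 calls had an adjusted p under 0.05.

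*Ctsk* was measured at 32.9, 15.5 and 23.5 FPKM in control replicates 1 to 3 and at 987, 532 and 1661 FPKM in RANKL 72 h. All 3 stimulated samples were above every control sample, and the lowest of them was also above the highest LPS 72 h sample. The log2 fold change was 5.38 ± 0.53 (SE, adjusted p = 1.3e-05), a 41.6-fold difference, and it ranged from 4.98 to 5.80 when single replicates were left out. The spread within the group was wide, with 23728 fragments in replicate 2 and 72888 in replicate 3. In the same 3 samples the 9 osteoclast markers, among them *Acp5* (tartrate-resistant acid phosphatase) and *Nfatc1* (the transcription factor that drives osteoclast genes), summed to 2182, 1189 and 3813 FPKM, in the same order as *Ctsk*. The stromal markers summed to 1935, 879 and 414 FPKM, in another order, with the lowest sum in the sample with most *Ctsk*. The part of stromal or other cells in the level of *Ctsk* was not tested.

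**Figure D2:**
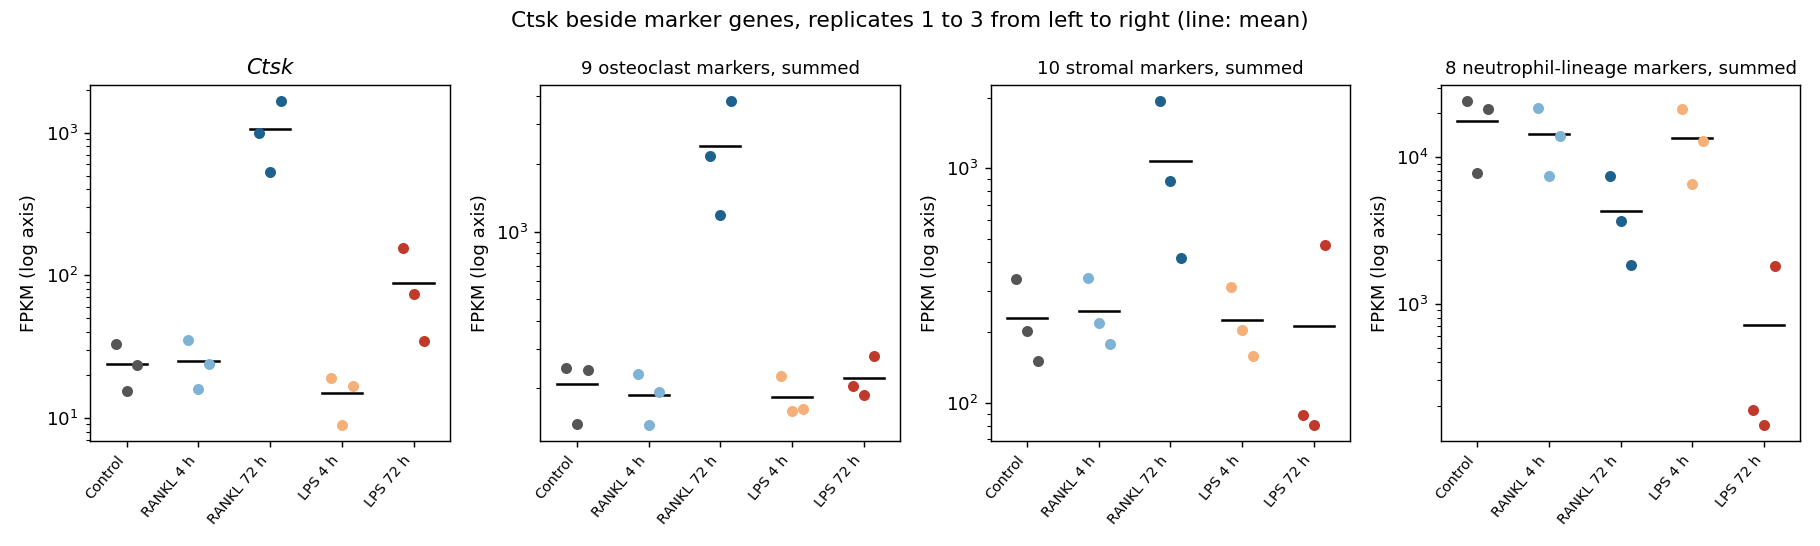
*Ctsk* and the summed levels of the osteoclast, stromal and neutrophil-lineage markers in FPKM (vertical log axes) in each sample of the 5 groups, with replicates 1 to 3 from left to right and lines for the means. In RANKL 72 h *Ctsk* and the osteoclast markers are both lowest in replicate 2 and highest in replicate 3, the stromal sum is highest in replicate 1, and in LPS 72 h *Ctsk* is lowest in replicate 3 (34.6 FPKM), where the stromal sum is highest (470 FPKM).

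Of the genes that fell, *Ctsz*, a carboxypeptidase also called cathepsin X, was at 1537, 1331 and 1178 FPKM in control and 632, 706 and 673 FPKM in RANKL 72 h. The groups were far apart and the stimulated samples lay close together. Its log2 fold change was -1.002 ± 0.14 (SE, adjusted p = 0.000263). *Ctsh*, an aminopeptidase, was at 344, 247 and 227 FPKM in control and 171, 145 and 96.5 FPKM after RANKL. It changed by the same amount with a wider spread (log2 fold change -1.002 ± 0.22, adjusted p = 0.00466).

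*Ctsl* was at 847, 658 and 923 FPKM in control and 500, 498 and 399 FPKM in RANKL 72 h, without overlap (log2 fold change -0.79 ± 0.26, adjusted p = 0.035). *Ctsb*, among the most abundant of the lysosomal proteases, was at 2941, 3245 and 2857 FPKM in control and 2003, 2185 and 1733 FPKM in RANKL 72 h (log2 fold change -0.62 ± 0.16, adjusted p = 0.00958). The groups did not overlap, but the fold lay near the threshold, and the call was lost without Control replicate 2 (log2 fold change -0.56), without RANKL 72 h replicate 3 (-0.53) with the sums of the samples set equal (-0.50) and with no filter on low values (-0.62, at a larger p).

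*Ctss* was just outside. This protease of antigen-presenting cells stays active at neutral pH. It was at 5406, 3719 and 3748 FPKM in control and 3472, 2913 and 2186 FPKM in RANKL 72 h, again without overlap. Its fold of 0.665 missed the threshold of 0.66 (log2 fold change -0.59, adjusted p = 0.0873), which it passed without Control replicate 2 (-0.68), Control replicate 3 (-0.68) or RANKL 72 h replicate 1 (-0.74). *Ctsd*, the main aspartic protease, was at 5809, 6494 and 6250 FPKM in control and 5014, 5015 and 4191 FPKM in RANKL 72 h, and at a log2 fold change of -0.39 (95% interval -0.81 to 0.04) it was not called. The remaining 3 genes overlapped control, with log2 fold changes of 0.04 for *Ctsa*, -0.16 for *Ctsc* and -0.27 for *Ctse*. Here and below, the median gene stands for the median level of the tested genes in a sample. It was on average 0.22 higher (log2) in RANKL 72 h than in control, unlike the median of the fold changes (0.16). Relative to the median gene *Ctsd* (-0.61) and *Ctss* (-0.81) were also called lower while the 5 calls remained. Beside the lower levels of these genes, markers of neutrophils and their precursors were lower too (4 of 8), and their part in the result was not tested. Of the 8 macrophage markers 1 was higher (*Csf1r*, log2 fold change 0.71), 1 was lower (*Fcgr1*, -2.48) and 6 were not called. Their sum was 10880 to 16230 FPKM against 7360 to 9075 in control, most of it *Lyz2* (8669 to 14040 against 5175 to 6585 FPKM), which was not called.

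After 4 h of LPS, 1 of the 10 genes was higher (8.75% of all genes tested were) and 1 was lower (41% of all genes). The gene that rose was *Ctsc*, the dipeptidyl peptidase that activates serine proteases of granules, and the one that fell was *Ctsd*. Their median log2 fold change was -0.34, beside -0.52 for all genes, and the groups did not overlap in 4 of 10.

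*Ctsc* was at 82.9, 104 and 61.9 FPKM in control and 165, 219 and 192 FPKM in LPS 4 h. Each stimulated sample exceeded each control sample. The log2 fold change was 1.23 ± 0.34 (SE, adjusted p = 0.00712), or 2.35-fold, and relative to the median tested gene, which lay 0.57 lower in LPS 4 h, it was 1.80. *Ctsd* was at 3064, 3941 and 3960 FPKM in LPS 4 h, below the 5809 to 6494 FPKM of control (log2 fold change -0.77 ± 0.20, adjusted p = 0.00441). Relative to the median gene its value was -0.20, which was not called. *Ctsa*, a partner of 2 lysosomal glycosidases, was at 262, 289 and 297 FPKM in control and 200, 222 and 228 FPKM in LPS 4 h, and *Ctsb* was at 2209, 2478 and 2383 FPKM. Neither group overlapped control, but the folds of 0.768 and 0.782 did not pass the threshold, and relative to the median gene both log2 values were above 0 (0.19 and 0.21). The other 6 overlapped control, with log2 fold changes of -0.22 for *Ctss*, -0.13 for *Ctsz*, -0.30 for *Ctsl*, -0.32 for *Ctsh*, -0.74 for *Ctse* and -0.68 for *Ctsk*. *Ctsk*, at 19.02, 8.98 and 16.8 FPKM, was nevertheless below the control sample of the same number in each of 3 pairs. So were *Ctse*, *Ctsh*, *Ctsl* and *Ctss*, and 8 cathepsins in all, whereas *Ctsz* was lower in 2 pairs and *Ctsc* in none. The share of all genes lower in every pair was not computed, so this count is a description only. Of the 6, *Ctsk* alone was called lower with the replicate block in a fit of these 2 groups (adjusted p = 0.00199). *Ctsh* and *Ctsl* had adjusted p-values of 0.00871 and 0.0204 in that fit without passing the fold. Relative to the median gene *Ctsk* was at -0.12. Without Control replicate 1 or Control replicate 2 *Ctse* was also called lower (log2 fold change -1.05 and -1.02, beside -0.74 with all replicates).

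At 72 h of LPS 3 of the 10 genes were higher (14.9% of all genes tested were) and 1 was lower (16.1% of all genes). Those that rose were *Ctsh*, *Ctsk* and *Ctsl*, and the one that fell was *Ctse*. The median log2 fold change was 0.16, beside 0.08 for all genes, and in 5 of 10 the groups did not overlap.

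*Ctsh* was at 533, 421 and 441 FPKM, above the 227 to 344 FPKM of control (log2 fold change 0.79 ± 0.22, adjusted p = 0.015, and 0.82 without LPS 72 h replicate 3). *Ctsk* was at 156, 74.0 and 34.6 FPKM, a spread wider than that of control, although its lowest sample was above the highest control sample (32.9 FPKM). Its log2 fold change was 1.68 ± 0.53 (adjusted p = 0.0234). With single replicates left out it ranged from 1.14 to 2.23, the highest being without LPS 72 h replicate 3. Over the same group the osteoclast markers summed to 187 to 278 FPKM (139 to 247 in control), with 0 of 9 called higher and 2 lower.

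*Ctsl* was at 1059, 992 and 1859 FPKM in LPS 72 h, all above control, with a log2 fold change of 0.64 ± 0.26 (adjusted p = 0.0715). The highest value was that of LPS 72 h replicate 3. Without that replicate the log2 fold change was 0.36 and the gene was not called, nor was it without Control replicate 2 (0.50), relative to the median gene (0.56) or in a fit of these 2 groups alone. The aspartic protease *Ctse*, found mostly outside the lysosome, was at 1.32, 1.37 and 4.88 FPKM in control and 0.0886, 0.206 and 0.236 FPKM in LPS 72 h, the latter from 4, 9 and 10 fragments. The log2 fold change was -3.02 ± 0.43 (adjusted p = 0.000161) on the log2(FPKM + 0.1) scale, -1.44 with a pseudocount of 1 and -3.58 with 0.01, and -2.43 without Control replicate 3. Markers of neutrophils and their precursors (8 of 8 lower) and of B cells (4 of 4 lower) fell in the same samples, and their part in the level of *Ctse* was not tested. *Ctsc* was at 45.6, 67.7 and 147 FPKM, so that replicate 1 was below every control sample, replicate 2 among them and LPS 72 h replicate 3 above them all. Its log2 fold change was -0.08 with that replicate and -0.55 without it, and it was not called in either case. *Ctsa* was at 321, 313 and 323 FPKM, just above the 262 to 297 FPKM of control, and its log2 fold change of 0.18 (95% interval -0.05 to 0.40) was not called. The other 4 overlapped control and were not called, with -0.13 for *Ctsb*, -0.05 for *Ctsd*, 0.15 for *Ctss* and 0.26 for *Ctsz*.

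**Figure D3:**
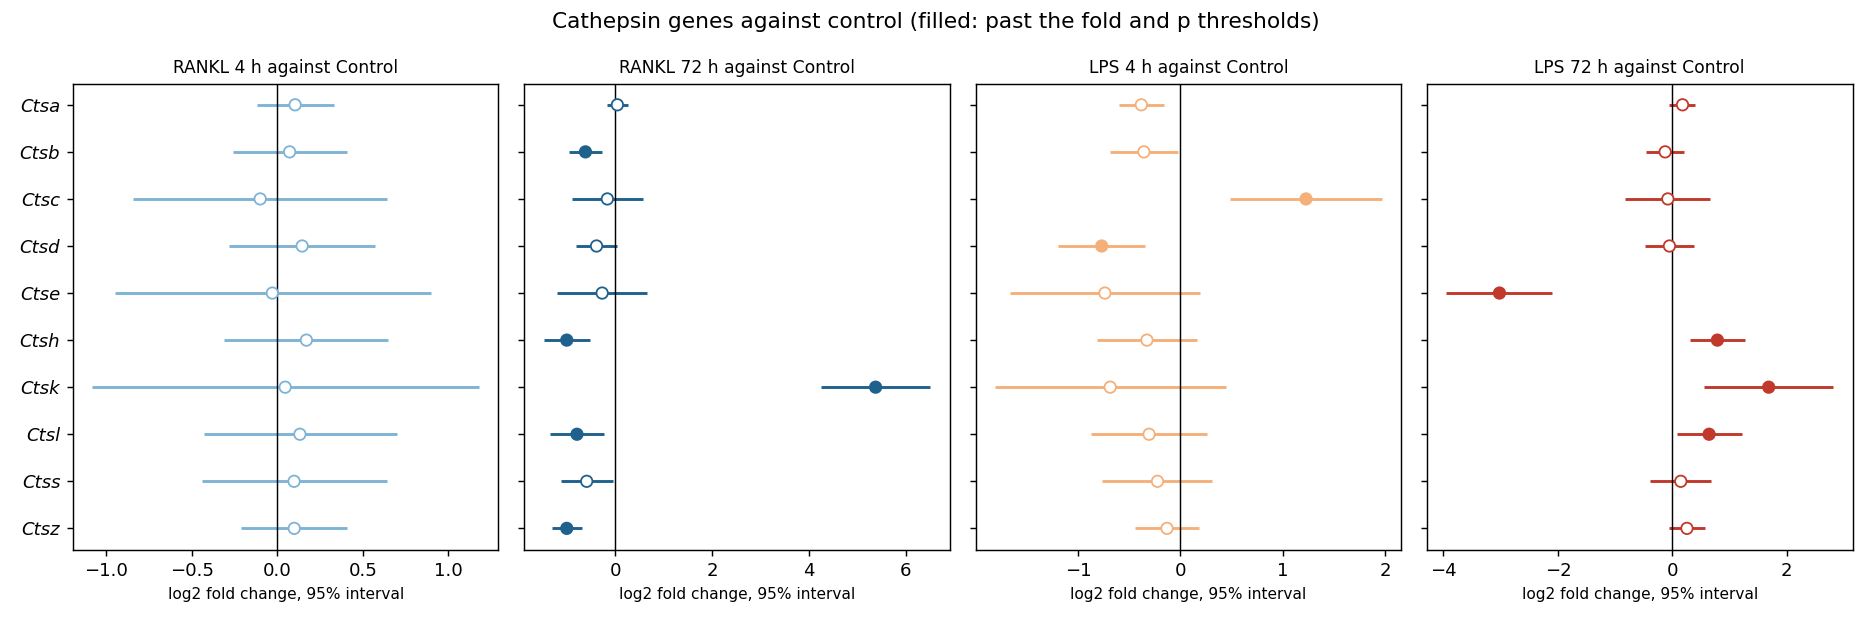
Log2 fold change of each cathepsin gene against control in the 4 stimulated groups (points; horizontal bars are 95% intervals, and each panel has an axis of its own). Filled points passed the thresholds of fold and p, which none did in RANKL 4 h, 5 in RANKL 72 h, 2 in LPS 4 h and 4 in LPS 72 h. All 4 comparisons share the same 3 control samples.

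The design also sets the stimuli against each other at the same time. At 4 h, 1 gene was higher in RANKL than in LPS (42.5% of all genes tested were) and 1 lower (9.31% of all genes). *Ctsd* was higher with RANKL (6233, 6741 and 7609 FPKM against 3064, 3941 and 3960 in LPS 4 h, log2 difference 0.91 ± 0.20, adjusted p = 0.00132), and *Ctsc* was lower (82.3, 97.9 and 54.0 FPKM against 165, 219 and 192, log2 difference -1.33 ± 0.34, adjusted p = 0.00431). In 7 of 10 genes the samples did not overlap, but the median log2 difference was 0.525 over all genes and 0.46 over the cathepsins. The median gene was 0.57 higher in RANKL 4 h. Relative to the median gene the difference of *Ctsd* was 0.35 and not called, and that of *Ctsc* was -1.90. *Ctsh* was also called without RANKL 4 h replicate 3 (0.58) or LPS 4 h replicate 1 (0.65), and *Ctsl* without RANKL 4 h replicate 2 (0.64), beside 0.49 and 0.44 with all replicates. The remaining log2 differences were 0.49 for *Ctsa*, 0.43 for *Ctsb*, 0.71 for *Ctse*, 0.73 for *Ctsk*, 0.32 for *Ctss* and 0.23 for *Ctsz*. With the replicate block in a fit of these 2 groups *Ctsk* (adjusted p = 0.00115) and *Ctse* (adjusted p = 0.0082) were called as well, and relative to the median gene their values were 0.16 and 0.14.

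At 72 h the cathepsins differed more between the stimuli. In RANKL, 2 of the 10 genes were higher than in LPS (25.1% of all genes tested were) and 4 were lower (13.8% of all genes). The medians were -0.41 for the family and 0.11 for all genes. In 9 of 10 cathepsins, all but *Ctsc*, the samples did not overlap (the share of all genes was not computed). All 6 calls had an adjusted p under 0.05.

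The genes that were higher in RANKL 72 h were *Ctsk* (log2 difference 3.69 ± 0.53, adjusted p = 8.15e-05) and *Ctse* (2.75 ± 0.43, adjusted p = 0.000177). In the case of *Ctse* the RANKL 72 h samples (2.19, 1.56 and 1.45 FPKM) overlapped control and only the LPS 72 h samples were low. Most of the 10 genes are cysteine proteases, and so were all that were lower. They were *Ctsh* (log2 difference -1.79 ± 0.22, adjusted p = 2.75e-05), *Ctsl* (-1.43 ± 0.26, adjusted p = 0.00059), *Ctsz* (-1.26 ± 0.14, adjusted p = 1.35e-05) and *Ctss* (-0.74 ± 0.25, adjusted p = 0.027). *Ctsz* was at 1661, 1685 and 1464 FPKM in LPS 72 h, more than any RANKL 72 h sample, and *Ctss* was at 4627, 4045 and 5465 FPKM. Without RANKL 72 h replicate 3 the difference of *Ctss* was -0.56 and not called, and its call was also lost with no filter on low values and in a fit of these 2 groups alone. Without LPS 72 h replicate 3 all 6 calls remained, with *Ctsl* at -1.15 and *Ctss* at -0.62. The remaining genes were *Ctsa* (-0.14), *Ctsb* (-0.49, 95% interval -0.83 to -0.15), *Ctsc* (-0.08, and 0.38 without LPS 72 h replicate 3) and *Ctsd* (-0.34). Relative to the median gene *Ctsb* was also called lower (-0.63), and the 6 calls remained. Beside these differences, 7 of 10 stromal and 7 of 8 neutrophil-lineage markers were higher in RANKL 72 h than in LPS 72 h and 3 of 8 macrophage markers were lower, and their part was not tested.

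**Figure D4:**
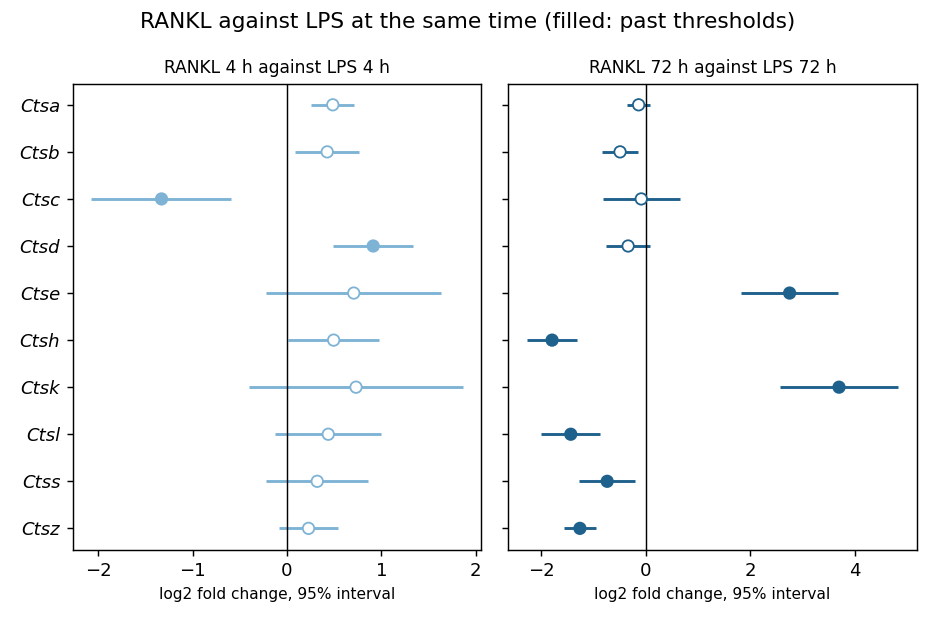
Log2 difference of each cathepsin gene between RANKL and LPS at 4 h and at 72 h (points; horizontal bars are 95% intervals, values above 0 are higher in RANKL, and each panel has an axis of its own). Filled points passed the thresholds, 2 genes at 4 h and 6 at 72 h, with *Ctsk* the farthest to the right at 72 h (3.69) and *Ctsh* the farthest to the left (-1.79).

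Between the times of a stimulus, 1 gene was higher at 72 h than at 4 h of RANKL (20.1% of all genes tested were) and 5 were lower (8.24% of all genes). *Ctsk* rose from 35.0, 15.9 and 23.7 FPKM at 4 h (log2 difference 5.33 ± 0.53, adjusted p = 1.67e-05). *Ctsz* (log2 difference -1.10, adjusted p = 0.000138), *Ctsh* (-1.17, adjusted p = 0.0019), *Ctsl* (-0.92, adjusted p = 0.018), *Ctsb* (-0.69, adjusted p = 0.00542) and *Ctss* (-0.69, adjusted p = 0.052) fell. The last 2 calls were near the threshold. Without RANKL 72 h replicate 3 neither was made (-0.60 and -0.51), and *Ctss* was not called without RANKL 4 h replicate 1 either (-0.54), where *Ctsd* was called instead (-0.60, beside -0.53 with all replicates). Both calls were also lost with no filter on low values and with equal sums of the samples (both -0.57), and that of *Ctss* with the replicate block in a fit of these 2 groups. *Ctsa* (-0.06), *Ctsc* (-0.07) and *Ctse* (-0.24) overlapped between the times. The groups were apart in 7 of 10 genes. Relative to the median gene, which was 0.22 higher at 72 h of RANKL, *Ctsd* was also called lower (-0.75) and the other calls remained.

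Between the times of LPS, 4 genes were higher at 72 h than at 4 h (45% of all genes tested were) and 2 were lower (14.3% of all genes). *Ctsk* (log2 difference 2.37, adjusted p = 0.00123), *Ctsh* (1.11, adjusted p = 0.000597), *Ctsl* (0.95, adjusted p = 0.00564) and *Ctsd* (0.72, adjusted p = 0.00556) were higher. *Ctse* (-2.29, adjusted p = 0.000354) and *Ctsc* (-1.31, adjusted p = 0.00394) were lower. *Ctsc* had thus been raised at 4 h and was within or below the range of control at 72 h in replicates 1 and 2, and in replicate 3 it was above control and still below every LPS 4 h sample. Without LPS 72 h replicate 3 the 6 calls remained. The median gene was 0.65 higher at 72 h, and relative to it only *Ctsk* (1.72), *Ctsc* (-1.96) and *Ctse* (-2.93) were called. *Ctsa* was also called without LPS 4 h replicate 3 (0.60, beside 0.56), and *Ctsb* (0.23), *Ctss* (0.37) and *Ctsz* (0.38) were not called. The groups were apart in 9 of 10 cathepsins, all but *Ctss* (the share of all genes was not computed). In exact permutation tests of 3 samples against 3, two-sided, the smallest p is 0.1, which every gene named here as apart reached and which cannot pass the threshold.

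Summed over the 10 genes, the cathepsins stood at 15570 to 17260 FPKM in control, 16590 to 18430 in RANKL 4 h, 11290 to 13160 in RANKL 72 h, 11750 to 12450 in LPS 4 h and 16010 to 18950 in LPS 72 h. The sums of RANKL 72 h and LPS 4 h were below those of every other sample. The make-up differed between these groups of similar sum. In RANKL 72 h *Ctsk* held 7.50%, 4.31% and 14.7% of the summed FPKM of the family, compared with 0.0961% to 0.191% in control. *Ctsz* held 4.802% to 5.96% there against 7.57% to 8.91% in control. In LPS 4 h *Ctsd* held 24.7% to 33.5% against 33.6% to 40.3% in control and *Ctsc* 1.32% to 1.86% against 0.398% to 0.647%. *Ctsl* held the most in LPS 72 h replicate 3 (9.81%), where replicates 1 and 2 had 6.24% and 6.20%. *Ctsd*, *Ctss* and *Ctsb* held the largest shares in each of the 15 samples.

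**Figure D5:**
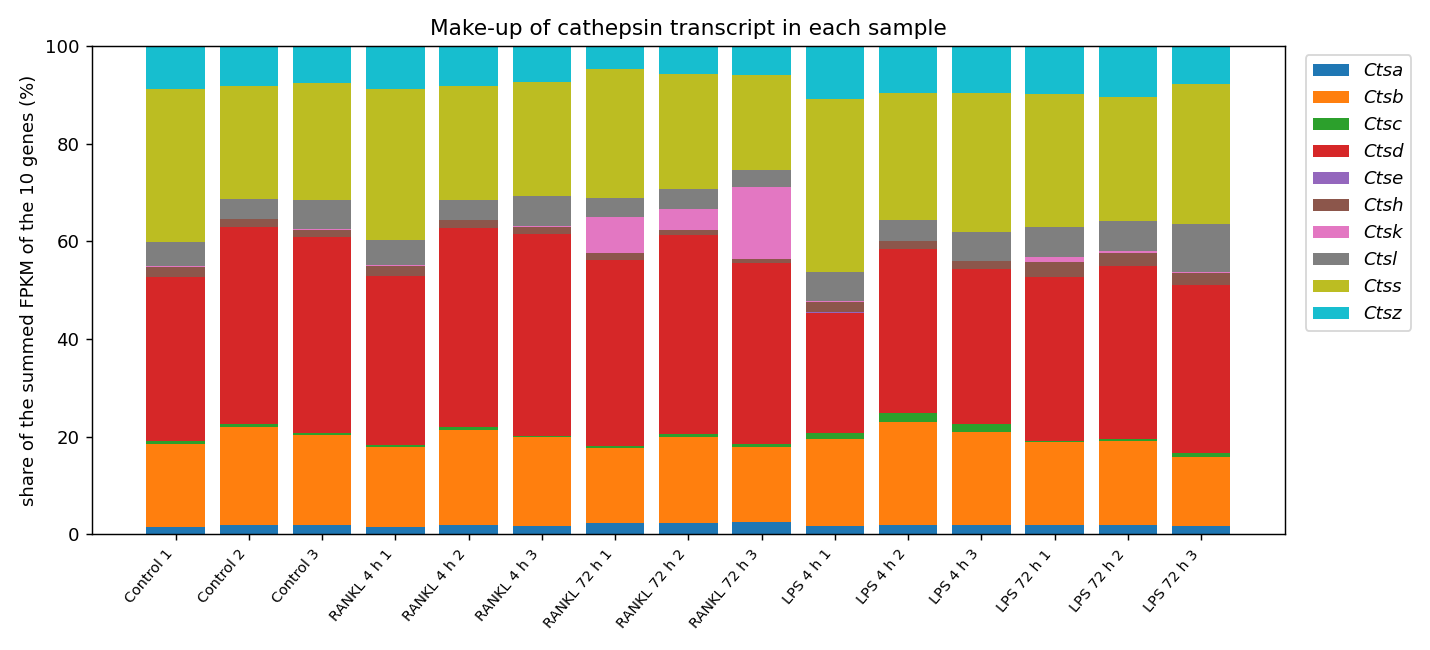
Share of each cathepsin gene in the summed FPKM of the 10 genes (vertical axis, percent, from 0) in each sample. *Ctsk* takes a visible share in RANKL 72 h (4.31% to 14.7%), and the share of *Ctsd* is lowest in LPS 4 h replicate 1 (24.7%).

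Other members of the family were few in these cells. Of 13 further cathepsin genes, 4 had a level high enough to be tested, and the other 9 are genes such as *Ctsj* and *Ctsq*, best known from the placenta. *Ctsg*, a serine protease of neutrophil granules, was at 119, 103 and 62.6 FPKM in control and 2.72, 2.49 and 1.09 FPKM in RANKL 72 h (log2 fold change -5.48, adjusted p = 0.00306), and it was listed at 0 in LPS 72 h replicate 1, with 2.87 and 9.63 FPKM in the others. *Ctsf* was at 0.896, 1.47 and 0.987 FPKM in control and 5.31, 4.79 and 4.66 FPKM in RANKL 72 h (log2 fold change 2.07, adjusted p = 0.000541). Of the 4 tested, none was called in either direction in RANKL 4 h or LPS 4 h against control, and in LPS 72 h *Ctsg* alone was lower. Counts in this list and in those that follow stand beside the shares of all genes tested that were called against control. In RANKL 4 h 1.21% were higher and 1.35% lower, and in RANKL 72 h 20.2% and 9.04%. In LPS 4 h 8.75% were higher and 41% lower, and in LPS 72 h 14.9% and 16.1%.

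Of the 12 listed inhibitors of cathepsins, 11 were tested. In RANKL 4 h none was called, in RANKL 72 h 0 were higher and 3 lower, in LPS 4 h 1 was higher and 1 lower, and in LPS 72 h 1 was higher and 3 were lower. The inhibitors that fell in RANKL 72 h were *Ctla2a* (log2 fold change -2.23), *Cst7* (-2.01), whose product cystatin F acts on cathepsin C, and *Serpinb1a* (-2.005), whose product blocks neutrophil serine proteases. *Cst7* was higher in LPS 4 h (24.6 ± 8.37 against 13.7 ± 7.78 FPKM, SD, n = 3 each, log2 fold change 0.94, adjusted p = 0.0731), and *Serpinb6a* was lower (-0.72, and -0.16 relative to the median gene). The broad inhibitors *Cst3* and *Cstb*, chosen for mention after their values were seen, were the most abundant, at 921 ± 81.8 and 824 ± 104 FPKM in control, and were called in no comparison with control. The stefins in this list are near-identical genes, between which reads may have been split, and their values are uncertain.

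Among 6 proteins that cut or accompany cathepsins, none was called in RANKL 4 h, 1 was higher and 2 lower in RANKL 72 h, 1 was lower in LPS 4 h, and 1 was higher and 1 lower in LPS 72 h. *Lgmn*, whose product legumain cuts cathepsin precursors, was at 1675, 1804 and 1419 FPKM in control and 850, 784 and 578 FPKM in RANKL 72 h (log2 fold change -1.16, adjusted p = 0.000255). *Psap*, the precursor of the saposins, fell as well (-0.65), and *Glb1*, the galactosidase that cathepsin A protects, was higher (0.63). *Neu1*, the neuraminidase of the same complex, fell in LPS 4 h (-0.93, adjusted p = 2.04e-06, and -0.36 relative to the median gene).

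Of 7 genes that sort enzymes to the lysosome, none was called in RANKL 4 h. In LPS 4 h 4 were lower (41% of all genes tested were) and 0 higher (8.75% of all genes). Those lower were *Sort1* (-1.63), *Nagpa* (-1.08), *Scarb2* (-0.70) and *Igf2r* (-0.66). Relative to the median gene, which lay 0.57 lower there, these values were -1.06, -0.51, -0.14 and -0.09. In RANKL 72 h 2 were higher (20.2% of all genes tested were) and 0 lower (9.04% of all genes). Those higher were *Igf2r*, a mannose 6-phosphate receptor (65.5 ± 13.4 against 25.1 ± 5.96 FPKM, SD, n = 3 each, log2 fold change 1.39, adjusted p = 0.00276), and *Gnptab*, whose product begins that tag (1.15, adjusted p = 0.00642). In LPS 72 h 2 were higher and 0 lower. Of 8 serine proteases that cathepsin C activates, 6 were tested. None was called in RANKL 4 h or LPS 4 h, and at 72 h 1 was higher and 3 lower with either stimulus. *Ctsg* belongs to this list as well, and the others that fell in RANKL 72 h were *Elane* (log2 fold change -5.31) and *Prtn3* (-5.08), both products of neutrophil precursors, whereas *Gzmc* rose (1.88). Of 7 genes of antigen presentation by MHC class II, none was called in RANKL at either time, and 1 was lower in LPS 4 h (*H2-DMa*, -0.90). In LPS 72 h 4 were lower, namely *Cd74*, *Ciita*, *H2-Aa* and *H2-Eb1*, which were named after their values were seen. *Cd74* encodes the invariant chain and was at 183 ± 125 FPKM in control and had 35.9 ± 9.0 FPKM in LPS 72 h (SD, n = 3).

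Of 6 transcription factors of lysosomal and osteoclast genes, none was called in RANKL 4 h and *Nfatc1* alone was called in RANKL 72 h, where it was higher (45.3, 25.2 and 62.2 FPKM against 6.24, 7.67 and 9.31, log2 fold change 2.42, adjusted p = 2.85e-05). In the 3 RANKL 72 h samples it had the same order as *Ctsk*. In LPS 4 h 2 were higher and 2 lower. *Tfeb*, a regulator of lysosomal genes, was at 1.69, 1.06 and 1.31 FPKM there and at 9.72, 10.5 and 11.9 FPKM in control (log2 fold change -2.92, adjusted p = 2e-08, and -2.35 relative to the median gene), and *Nfatc1* was lower too (-1.19). *Tfec* (1.28) and *Mitf* (0.97), of the same family as *Tfeb*, were higher. In LPS 72 h 0 were higher and 2 were lower.

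The element bound by MITF and the TFE factors has the core CACGTG, which reads the same on both strands, and lysosomal genes are known for it, so it was searched in promoters of the family. RefSeq windows of 300 bases, from 250 before to 50 after a gene's start on GRCm38.p6, were at hand for 7 of the 10 genes (*Ctsa*, *Ctsc*, *Ctsd*, *Ctsk*, *Ctsl*, *Ctss* and *Ctsz*). No window was used for *Ctsb*, *Ctse* and *Ctsh*. These genes had 8 windows, since *Ctsa* has 2 start sites in the table. The core was found in 3 of the 8, 1 each for 3 genes, against 7.15% of all 32851 windows. It starts at base -12 and again 5 bases after the start in the second window of *Ctsa*, but not in the first, at -245 and -98 in *Ctsd* and at -236 in *Ctsl*. The stretches upstream of the RefSeq start that hold it are shown to set the members with the core beside *Ctsk*, which has none in its window. They are chr2:164833693-164833772 on the plus strand for *Ctsa*, chr7:142387908-142388077 on the minus strand for *Ctsd*, chr13:64370691-64370770 on the minus strand for *Ctsl* and chr3:95499130-95499209 on the plus strand for *Ctsk*, 5′ to 3′ along the gene, with the core in capitals.
Ctsa: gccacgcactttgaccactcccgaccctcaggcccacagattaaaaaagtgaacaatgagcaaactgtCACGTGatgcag
Ctsd: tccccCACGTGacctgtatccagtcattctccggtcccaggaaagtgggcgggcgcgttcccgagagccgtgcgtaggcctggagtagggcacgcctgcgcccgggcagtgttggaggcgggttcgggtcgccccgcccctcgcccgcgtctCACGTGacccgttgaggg
Ctsl: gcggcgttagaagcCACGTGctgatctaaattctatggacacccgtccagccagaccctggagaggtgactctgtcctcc
Ctsk: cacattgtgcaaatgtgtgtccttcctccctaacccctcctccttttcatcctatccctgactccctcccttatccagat
The starts used here are those of RefSeq. In GENCODE M21 the stretches of *Ctsa* and *Ctsl* lie within the gene, that of *Ctsd* partly so and that of *Ctsk* before it. A match of these letters is a description and no evidence of binding. TGANTCA, the AP-1 motif, was in 0 of the 8 windows (7.81% of all windows), and GAGGAAGT, a PU.1 motif searched on both strands, was in 2 of the 8, those of *Ctsc* and *Ctss* (3.2% of all windows). No motif searched overlaps another.

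In the GENCODE M21 annotation of GRCm38 the genes lie on 7 chromosomes. *Ctsk* (chromosome 3, 95499256 to 95509362) and *Ctss* (chromosome 3, 95526786 to 95556403) are both on the plus strand with 17423 bases between them. Of this pair *Ctsk* rose in RANKL 72 h. *Ctss* lay below control without overlap (log2 fold change -0.59) and just missed the fold threshold for a call. *Ctsk*, *Ctse* (chromosome 1, 131638306 to 131675505) and *Ctsh* (chromosome 9, 90054152 to 90076089) overlap no other annotated gene. *Ctsd* (chromosome 7, 142375911 to 142388038) shares its strand with *Gm49369*, and *Ctsl* (chromosome 13, 64359337 to 64370890) overlaps an antisense gene and a pseudogene. *Ctsa* overlaps *Neurl2* and *Pltp*, *Ctsb* overlaps *Fdft1*, *Ctsc* overlaps *Gm26522*, *Ctss* overlaps *Hmgb1-ps5* and *Ctsz* overlaps *Nelfcd*. Whether the counting used strand is not given in the sources used here, and the values of the genes with overlaps are uncertain to that degree.

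Outside the family, the genes whose log2(FPKM + 0.1) was most like that of a cathepsin were found by Pearson's correlation over the 15 samples among 9486 genes whose mean reached 1 FPKM. The coefficients are descriptions, since samples of a group share their treatment and the genes of a sample its library. Most alike to *Ctsk* were *Pop4* (0.95), *Adck3* (0.95) and *Msi2* (0.95). *Ctsz* had the closest, *Cndp2* and *Akr1a1* (both 0.98) and *Psmd4* (0.96). *Ctsa* was matched by *Nisch*, *H6pd* and *Ap2a1* (all 0.97), *Ctsd* by *Cbr3*, *BC005537* and *Tlr13* (0.95 to 0.96), *Ctse* by *Klk1b11*, *Nhsl2* and *Papss2* (0.95 to 0.97) and *Ctsh* by *Rnf25*, *H2-D1* and *Snx11* (0.95 to 0.97). *Ctsb* was matched by *C3ar1*, *Psap* and *Dtnbp1* (0.92 to 0.93), *Ctss* by *Acpp*, *4933430I17Rik* and *Cxcl14* (0.88 to 0.91) and *Ctsc* by *Rap1b*, *Gm12185* and *Ccnd2* (0.88 to 0.89). For *Ctsl* no gene was above 0.85, the value of *4833439L19Rik*, *Cd1d1* and *Mcemp1*.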

How the data were processed

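The 15 RNA-seq samples of mouse BMDMs were grouped by their labels, 3 in each of 5 groups. The authors deposited FPKM per gene and sample. The submitters' processing notes name StringTie and the builds GRCm38.p4 and mm10, and the aligner is not given in the sources used here. Genes up to *Tti2* in alphabetical order were analysed, since the entry after it is incomplete, and later genes were not analysed here. For 14485 of 14485 genes above 0 in at least 3 samples, the FPKM values were whole multiples of the worth of a fragment (100% of values above 0 within 0.01), which gave the fragments and 19562663 to 21480177 mapped reads per sample. Counting intervals are not given, since amplified fragments are not independent molecules.

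Tests were run in limma 3.58.1 under R 4.3.3, with lmFit followed by eBayes (trend), on log2(FPKM + 0.1), in 1 fit of all groups over 11743 genes whose mean reached 0.1 FPKM. The thresholds are those the authors used with edgeR, which was not used here since FPKM are not counts. Errors of log2 fold changes are standard errors of this fit. The fragment recovery and the fit were tested on simulated data. Fold changes on this scale understate the change of low genes.

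The cathepsins and the gene lists were chosen with earlier results of these data known. All 10 cathepsins are named in each comparison, up to 4 called genes of each list with the largest change in RANKL 72 h and LPS 4 h, and 3 alike genes for each cathepsin. Where replicate numbers paired the samples was judged by the correlation of their deviations from the group means, which was above 0.1 in every pair (lowest 0.136) in the 5 comparisons without LPS 72 h and not in the 3 with it. The labels do not say what a number stands for. Alternatives were the pseudocount, the filter, the scaling, the replicate block, the adjustment of p, the groups in the fit, the trend, limma voom on the recovered fragments and leaving out each replicate, and the fit of 2 groups with the replicate block was added after seeing the data. Promoters are from RefSeq and positions from GENCODE M21. The other software was Python 3.11.15, scipy 1.17.1, pandas 2.3.3 and numpy 2.4.6, with matplotlib 3.10.9 for figures.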

Additional observations from a re-analysis of the deposited data

Results flagged for a closer look

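The same stimulus differed between 4 h and 72 h in 5 cathepsins for RANKL and 6 for LPS. The rule was the fold thresholds with an adjusted p under 0.05 in the direct comparison of the times in the limma fit. The share of all genes under this rule was not computed, so the counts describe these genes only. At the unadjusted p, 20.1% of all genes tested were higher at 72 h and 8.24% lower with RANKL. For LPS these shares were 45% and 14.3%. With RANKL the log2 difference of 72 h from 4 h was 5.33 for *Ctsk*, -0.69 for *Ctsb*, -1.17 for *Ctsh*, -0.92 for *Ctsl* and -1.10 for *Ctsz*. With LPS it was 2.37 for *Ctsk*, 1.11 for *Ctsh*, 0.95 for *Ctsl*, 0.72 for *Ctsd*, -1.31 for *Ctsc* and -2.29 for *Ctse*. Relative to the median gene, *Ctsh* (0.46), *Ctsl* (0.30) and *Ctsd* (0.07) were not called between the times of LPS. Time in culture also differed between the 4 h and 72 h groups.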

How the results depend on the processing

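Of 1440 recomputed fold changes of single cathepsins, 1348 kept their direction and their side of the thresholds, 31 lost a call, 19 gained one, 42 changed sign without being called in either setting, and 0 called values changed direction. Shares of all genes called under the alternatives are not given here, so the counts in this paragraph describe these 10 genes only. The number of cathepsins called in LPS 4 h against control and in RANKL 4 h against LPS 4 h was 2, and 1 with no filter on low values or with samples centred on the median gene, where *Ctsd* was not called. Without the filter 7 calls were lost in all, those of *Ctsd* in these comparisons and in LPS 72 h against LPS 4 h, of *Ctsb* in RANKL 72 h against control and against RANKL 4 h, and of *Ctss* in RANKL 72 h against LPS 72 h and against RANKL 4 h. In LPS 72 h against LPS 4 h the number called was 6, and 3 with samples centred on the median gene. The cause of the change without a filter was not tested. In the fit of all groups the replicate block left the counts at 0, 5, 2, 4, 2, 6, 6 and 6 in the order of the 8 comparisons (against control for RANKL at 4 h and 72 h and for LPS at 4 h and 72 h, RANKL against LPS at 4 h and 72 h, 72 h against 4 h of RANKL and of LPS) and changed no call of a cathepsin, whether or not the numbers pair the samples. In fits of 2 groups with the replicate block, added after seeing the data, they were 0, 5, 3, 4, 4, 5, 5 and 5, with *Ctsk* gained in LPS 4 h against control, *Ctsk* and *Ctse* gained in RANKL 4 h against LPS 4 h, and *Ctss* (RANKL 72 h against LPS 72 h and against RANKL 4 h) and *Ctsd* (LPS 72 h against LPS 4 h) lost. Limma voom on the recovered fragments gave the same counts as the fit of all groups. Leaving out single replicates gave 0, 4 to 6, 2 to 3, 3 to 4, 2 to 3, 5 to 6, 4 to 6 and 6 to 7. Where a group had 2 samples left, the fit pooled the spread over all groups. *Ctse* in LPS 72 h rested on 4 to 10 fragments. Genes listed at 0 and cell types below these marker levels were not resolved further.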
